A study of Homo sapiens with 6 samples.

Results

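The subunits of the transcription factor AP-1, and 4 further immediate early genes, were followed in T98G cells after DYRK1A depletion. The 10 genes were taken by name from the 23026 genes of the spike-in normalized table: FOS, FOSL1 and FOSL2 of the Fos family, JUN, JUNB and JUND of the Jun family, and EGR1, IER2, IER3 and MAFF. T98G is a human glioblastoma cell line. Both groups of 3 libraries came from T98G cells that had taken up a lentivirus and been selected with puromycin, and they differed in the hairpin, a control sequence (shControl) or 1 sequence directed against the kinase DYRK1A (shDYRK1A). Before extraction, a fixed amount of Drosophila Kc167 cells was added to equal numbers of T98G cells, and the fly reads served as a scale outside the human transcriptome. The libraries of each group are named 1A, 1B and 1C, and triplets of values are given in that order. The labels do not state that these were separate cultures, so p-values measure the spread between libraries, which may be technical.

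AP-1 is a dimer of basic leucine zipper proteins. Jun proteins pair with each other or with Fos proteins, whereas Fos proteins need a Jun partner, and the complex binds a short palindromic element in promoters and enhancers of genes for growth, migration and matrix breakdown. JUN and FOS are classical immediate early genes, which growth factors and stress switch on through mitogen-activated protein kinases (MAPKs) without new protein synthesis. JUNB and JUND can act against JUN at some genes, and FOSL1 (Fra-1) is typical of mesenchymal and invasive tumour cells.

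The promoter windows of the Jun genes share a CCAAT box and differ in other elements, and stretches from them are given here. The JUN stretch leaves out its CCAAT box. Whether these elements bear on the difference between JUN and JUNB or JUND was not tested. RefSeq windows of GRCh38.p14, from 250 bases before to 50 bases after a transcript start, were found for 8 of the 10 genes. FOSL1 and IER3 had no entry. Capitals mark the variant AP-1 element TGACATCA in JUN, the CCAAT box and the TATA box (TATAAA) in JUNB, and the cAMP response element (CRE, TGACGTCA) and the CCAAT box in JUND. For JUN, chr1:58784096-58784125 on the minus strand is shown, positions -78 to -49 from the RefSeq start, which lies 280 bases inside the longer GENCODE gene. For JUNB, chr19:12791236-12791485 on the plus strand is shown, and for JUND, chr19:18281623-18281872 on the minus strand, each from -250 to -1.
JUN: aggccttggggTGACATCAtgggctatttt
JUNB: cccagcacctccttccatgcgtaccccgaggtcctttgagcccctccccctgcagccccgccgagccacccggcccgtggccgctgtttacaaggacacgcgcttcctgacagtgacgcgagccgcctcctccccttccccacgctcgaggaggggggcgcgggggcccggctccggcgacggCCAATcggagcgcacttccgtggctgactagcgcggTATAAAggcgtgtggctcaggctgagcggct
JUND: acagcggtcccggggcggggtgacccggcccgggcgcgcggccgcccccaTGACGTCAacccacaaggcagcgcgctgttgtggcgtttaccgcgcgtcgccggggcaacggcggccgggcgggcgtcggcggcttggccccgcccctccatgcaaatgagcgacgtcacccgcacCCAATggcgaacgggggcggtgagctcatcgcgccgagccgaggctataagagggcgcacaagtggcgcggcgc

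All motifs were searched on both strands of the 300-base windows. The element of JUN began at -67 and occurred in 2.61% of all 35116 windows. A CRE began at -200 in JUND and at -54 in a window of MAFF, against 1.85% of all windows. The RefSeq starts of the MAFF windows lie 1227 and 2253 bases inside the longer GENCODE gene. The AP-1 site TGACTCA was found in 4.95% of windows and, among the 8 genes with a window, in that of FOSL2, from position 5 after the start. The RefSeq start of FOSL2 lies 410 bases inside the longer GENCODE gene, and that of FOS 54 bases. A CCAAT box, present in 34.6% of windows, began at -87 in JUN, -67 in JUNB and -74 in JUND, and also lay in MAFF. TATAAA began at -33 in FOS and -31 in JUNB, against 11.5% of windows. The CArG box, to which serum response factor binds, was found at -105 and -83 in EGR1, against 1.29% of windows. The palindrome TCTCGCGAGA, to which DYRK1A has been linked, was in 0.424% of windows and in none of those of the 8 genes. These matches are letters in a window and were not tested as binding sites.

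**Figure D1:**
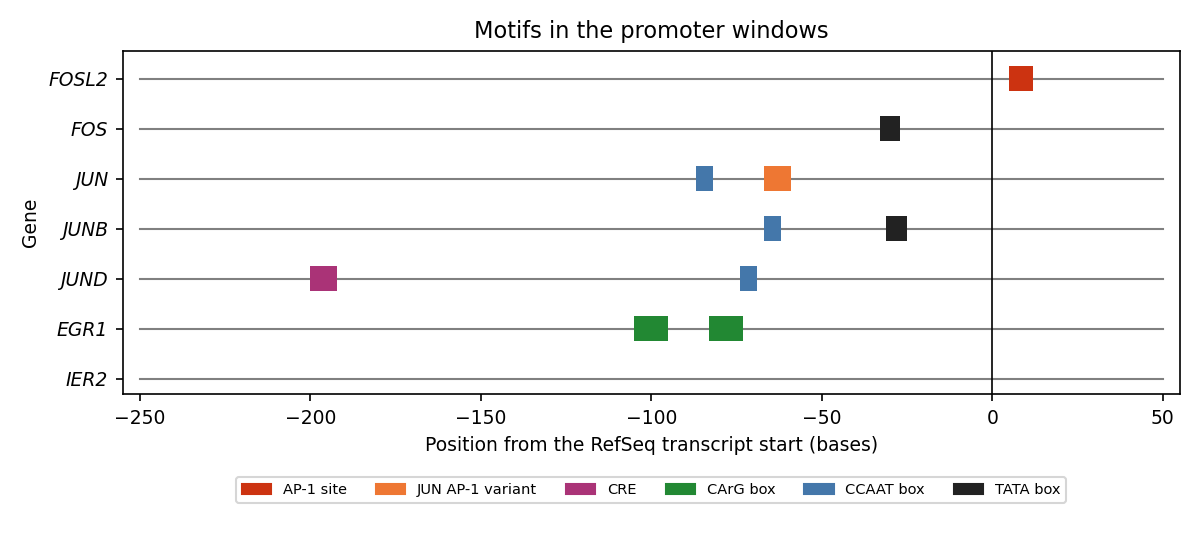
Motif matches in the promoter windows of the 7 genes with a single window, drawn by distance in bases from the RefSeq transcript start (vertical line). JUN, JUNB and JUND share a CCAAT box between -87 and -67, while the variant AP-1 element is seen in JUN at -67 and the CRE in JUND at -200.

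Gene counts ranged from 33708297 to 42154438 per library, and the spike-in size factors from 0.821 to 1.21. Of the 9697 genes past an expression filter of 10 normalized CPM (counts relative to the library total), 6145 were called lower (63.4%) and 105 higher (1.08%) in shDYRK1A at an edgeR adjusted p below 0.05, and the median log2 FC was -0.40. This shared shift vanished with TMM scaling, which sets the bulk of human genes equal between libraries: 28.6% of genes were then called lower and 27.3% higher, around a median of 0.00. Each gene is therefore given on both scales, and the TMM value is its change relative to the shift. The count of lower genes fell to 4049 without shControl 1A, and that of higher genes to 69 without shDYRK1A 1C. A principal component with 8.1% of the variance set shDYRK1A 1B apart, the library with the most unmapped reads (15.6%). DYRK1A itself had normalized counts of 2227, 2234 and 1895 in shControl against 1482, 1056 and 1285 in shDYRK1A, a log2 FC of -0.73 ± 0.15 (SE) on the spike-in scale and -0.34 ± 0.06 on the TMM scale, and all 3 shDYRK1A libraries lay below all shControl libraries.

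The mesenchymal markers VIM, CD44 and FN1 stood at 1935, 1462 and 890 mean CPM in shControl, whereas the astrocyte genes S100B and AQP4 had no count in any library, and GFAP had at most 4. Summed over 12 glioma and mesenchymal markers, the level was 4294 to 4344 CPM in shControl and 3832 to 3994 in shDYRK1A. It was mostly VIM, CD44 and FN1, and 4 of the 12 passed the expression filter. Markers of neurons, leukocytes, endothelium and oligodendrocytes, also 12 genes, summed to 16.9 to 18.4 CPM in shControl and 12.6 to 13.7 in shDYRK1A, mostly SNAP25, and AIF1 was at 0.

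Among the 10 genes, JUN and FOSL1 fell most, FOSL2 and IER3 fell less, and JUNB and JUND had the highest log2 FC, near 0 on a scale on which most transcripts fell. On the spike-in scale, 4 of the 7 genes past the filter were called lower (FOSL1, FOSL2, JUN and EGR1) against 63.4% of all genes, and 2 of them (FOSL1 and JUN) were also below a log2 FC of -0.7, against 14.3%. None was called higher by edgeR or DESeq2, and none rose at an unadjusted p below 0.05. On the TMM scale, FOSL1, FOSL2 and JUN were called lower against 28.6% of genes, JUN passed -0.7 as 1.93% of genes did, and JUNB, JUND and IER2 were called higher against 27.3%. FOS, IER3 and MAFF lay under the filter. In a wider fit of the 17530 genes that edgeR's filterByExpr keeps, 5 of the 10 genes were called lower (44.2% of genes) and 0 higher (1.97%) with spike-in scaling, while 3 were lower (21.0%) and 4 higher (19.0%) with TMM. Fewer expressing cells and less RNA per cell cannot be told apart in bulk libraries.

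**Figure D2:**
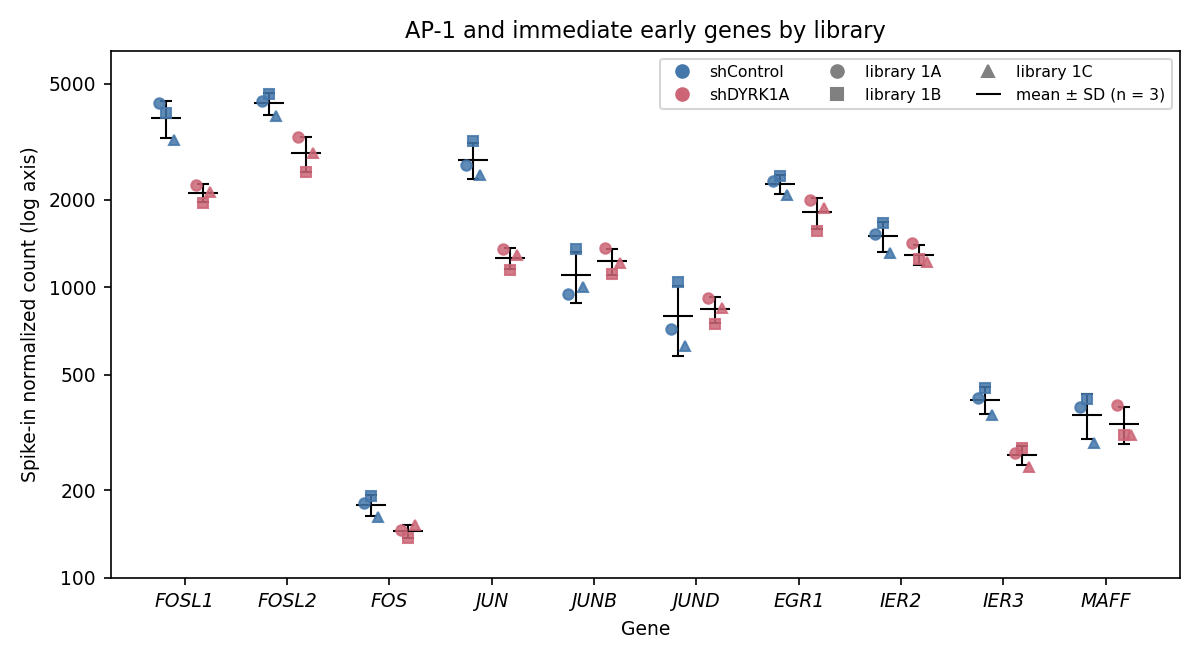
Spike-in normalized counts (log axis) of the 10 genes in each of the 6 libraries, with the mean and SD of each group of 3. The groups separate for FOSL1, FOSL2, FOS, JUN, EGR1 and IER3, and overlap for JUNB, JUND, IER2 and MAFF.

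The ranges of the groups were compared over the same 17530 genes. With spike-in normalized counts, 6 of the 10 genes had every shDYRK1A library below every shControl library, as did 48.2% of genes, and 0 had them above, against 3.69%. With TMM-scaled CPM, shDYRK1A lay wholly below for FOSL1, FOSL2 and JUN (23.5% of genes) and wholly above for JUNB, JUND, IER2 and MAFF (27.1% of genes).

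FOSL1 was the most abundant Fos transcript per unit of length and the one that fell most. Length is that of all annotated exons of a gene merged, so orders between genes depend on the annotation. By raw counts FOSL2 was ahead in every library. FOSL1 (ENSG00000175592, GRCh38 chromosome 11, 65892049 to 65900573, minus strand, 4 exonic blocks) encodes Fra-1, a Fos protein without the strong activation domain of FOS. It had 4289, 3960 and 3209 normalized counts in shControl against 2241, 1947 and 2128 in shDYRK1A. All depleted libraries lay below the lowest control. The log2 FC was -0.86 ± 0.14 (SE, adjusted p = 2.6e-08), a fold of 0.551, and 6.29% of the tested genes fell further. With TMM it was -0.45 ± 0.05 (adjusted p = 3.5e-05), and the spike-in call held when any single library was left out.

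FOSL2 (ENSG00000075426, chromosome 2, 28392448 to 28417312, plus strand, 7 exonic blocks) encodes Fra-2, the closest relative of Fra-1. Its normalized counts were 4379, 4605 and 3873 in shControl against 3279, 2490 and 2897 in shDYRK1A, again without overlap, and lowest in shDYRK1A 1B. The log2 FC was -0.57 ± 0.14 (adjusted p = 1.9e-04) on the spike-in scale, and 26.7% of genes fell further. Relative to the shift it fell by 0.17 ± 0.05 on the log2 scale (adjusted p = 0.010).

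FOS (ENSG00000170345, chromosome 14, 75278774 to 75282230, plus strand, 3 exonic blocks), the founding member of the family and normally silent until cells are stimulated, was scarce. It had 180, 192 and 162 normalized counts in shControl against 146, 137 and 152 in shDYRK1A. Although the groups did not overlap, the difference was not called in the wider fit, at a log2 FC of -0.29 ± 0.20 (95% interval -0.69 to 0.10, adjusted p = 0.23). With TMM the sign turned, to 0.08 ± 0.13 (adjusted p = 0.66).

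JUN showed the largest fall of the 10 genes in both the spike-in and the TMM fit. JUN (ENSG00000177606, chromosome 1, 58780788 to 58784327, minus strand, 1 exonic block) encodes c-Jun, the main activating partner in AP-1 and a substrate of the JNK kinases. Its normalized counts were 2621, 3182 and 2424 in shControl against 1353, 1147 and 1285 in shDYRK1A. The highest depleted library reached 1353 counts, against 2424 in the lowest control. The log2 FC was -1.12 ± 0.15 (adjusted p = 9.8e-13), a fold of 0.460, and 1.73% of genes fell further. The TMM value was -0.72 ± 0.07 (adjusted p = 7.1e-06), and the call held when any single library was left out.

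JUNB went the other way relative to other genes. JUNB (ENSG00000171223, chromosome 19, 12791496 to 12793315, plus strand, 1 exonic block) encodes a Jun protein with weak activating capacity that is induced along with FOS. It had 945, 1348 and 1000 normalized counts in shControl against 1361, 1113 and 1212 in shDYRK1A, so that shControl 1B lay within the depleted range. The spike-in log2 FC was 0.16 ± 0.15 (95% interval -0.14 to 0.46, adjusted p = 0.33), and it was 0.067 without shControl 1A and 0.34 without shControl 1B, uncalled in both. As a share of all human gene counts, JUNB stood at 19.6, 28.2 and 24.9 CPM in shControl and 37.1, 35.6 and 36.4 CPM in shDYRK1A, which do not overlap. The TMM log2 FC was 0.56 ± 0.10 (adjusted p = 6.2e-04), and 97.6% of genes had a lower value. An exon of HOOK2 on the opposite strand covers 14.2% of the JUNB exon, and the libraries were made with a stranded kit.

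JUND (ENSG00000130522, chromosome 19, 18279760 to 18281622, minus strand, 1 exonic block) encodes the Jun protein that is usually made at a steady rate and is high in resting cells. Its normalized counts were 719, 1037 and 627 in shControl against 919, 745 and 850 in shDYRK1A, and the group ranges overlapped fully, with shControl 1B highest and shControl 1C lowest. The spike-in log2 FC was 0.08 ± 0.16 (95% interval -0.23 to 0.38, adjusted p = 0.66), and its sign turned without shControl 1C, to -0.07, and when a trend on gene GC content was removed, to -0.08. Relative to the shift it was 0.49 ± 0.11 higher (adjusted p = 0.0036), from 15.0, 21.7 and 15.6 CPM in shControl to 25.1, 23.9 and 25.5 CPM in shDYRK1A. Without shDYRK1A 1B the TMM adjusted p of JUND was 0.072, and that of JUNB 0.029. JUND and JUNB had the highest exonic GC content of the 10 genes, 69.7% and 64.9%, against 52.9% in FOSL2. With the GC trend removed, JUNB stood at 0.03 and JUN at -1.21, around a median of -0.40.

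**Figure D3:**
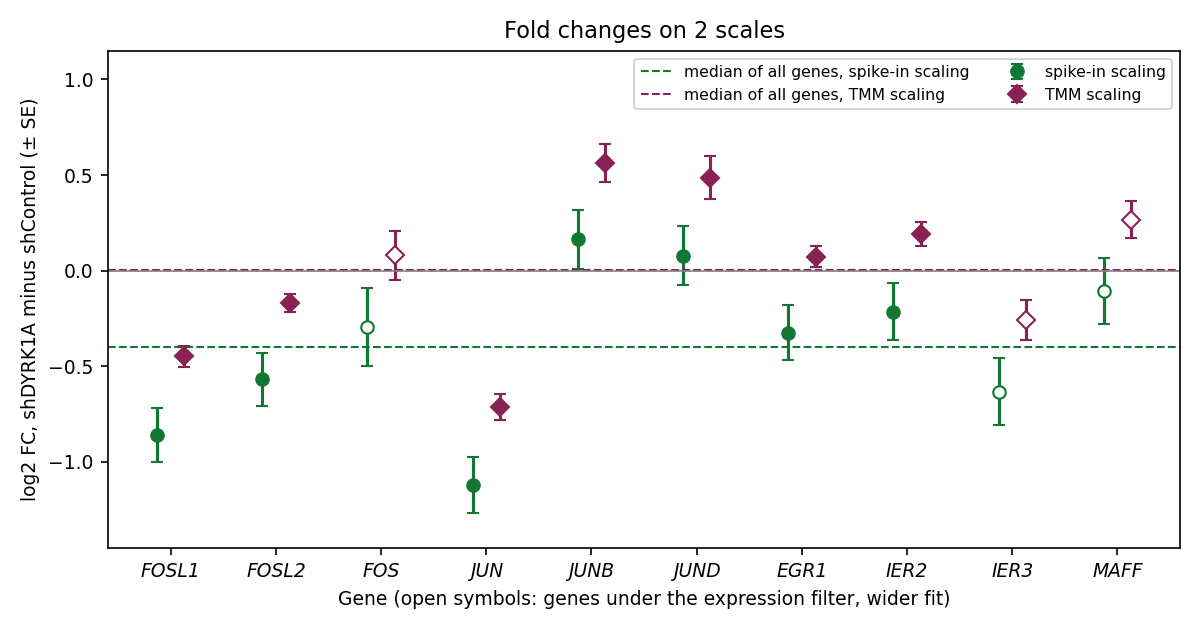
Log2 FC (shDYRK1A minus shControl, ± SE) of the 10 genes with spike-in scaling (circles) and TMM scaling (diamonds), with the median of all genes on each scale as a dashed line at -0.40 and 0.00. Open symbols are the 3 genes under the filter; JUN, FOSL1, FOSL2 and IER3 lie below the median on each scale, and the other 6 genes above it, JUNB and JUND farthest.

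The makeup of the Jun family was compared within each library, where no size factor can move it, and JUN gave way to JUNB and JUND in all 3 depleted libraries. The JUN to JUNB count ratio was 2.77, 2.36 and 2.42 in shControl against 0.994, 1.03 and 1.06 in shDYRK1A. Its log2 value averaged 1.33 ± 0.13 (SD, n = 3) with the control hairpin and 0.04 ± 0.05 (SD, n = 3) after depletion, a difference of -1.29 with no overlap. JUN to JUND went from ratios of 3.64, 3.07 and 3.87 to 1.47, 1.54 and 1.51, a log2 difference of -1.22 with no overlap. JUNB to JUND, by contrast, was 1.31, 1.30 and 1.60 in shControl and 1.48, 1.49 and 1.43 in shDYRK1A, with overlapping ranges. A two-sided exact permutation test of 3 against 3 libraries cannot go below 0.1, which both ratios with JUN reached (0.129 adjusted over 9 ratios), while JUNB to JUND gave an exact p of 0.4.

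Scaled to exon length, JUN made up 45.0%, 40.9% and 43.6% of Jun family transcripts in shControl, and 23.5%, 24.3% and 24.4% in shDYRK1A. JUNB went from 33.4% ± 1.7 (SD, n = 3) to 45.6% ± 0.6 (SD, n = 3) and became the most abundant of the 3 on this scale. In raw counts of shDYRK1A, JUN averaged 37.9% of the family and JUNB 36.9%. Length-scaled JUND went from 23.4% ± 2.0 to 30.3% ± 0.4 (SD, n = 3). In raw counts, JUN held 61.2% of the family in shControl 1A (95% Wilson interval 59.5 to 62.8) and 37.2% in shDYRK1A 1A (35.7 to 38.8), intervals that cover counting error only.

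Within the Fos family the length-scaled order was the same in all 6 libraries, and the differences were smaller. FOSL1 supplied 77.3%, 74.9% and 74.2% of length-scaled Fos transcripts in shControl and 70.2%, 72.5% and 71.4% in shDYRK1A. The FOSL1 to FOSL2 count ratio was 0.979, 0.860 and 0.829 in shControl and 0.684, 0.782 and 0.735 in shDYRK1A, a log2 difference of -0.28 without overlap. FOS to FOSL1 went from 0.0420, 0.0484 and 0.0504 to 0.0650, 0.0704 and 0.0712, a log2 difference of 0.56, and the difference for FOS to FOSL2 was 0.28. These 3 ratios also reached the smallest exact p of 0.1. Fos counts summed over Jun counts gave 2.07, 1.57 and 1.79 in shControl and 1.56, 1.52 and 1.55 in shDYRK1A, so that shControl 1B nearly touched the depleted range.

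**Figure D4:**
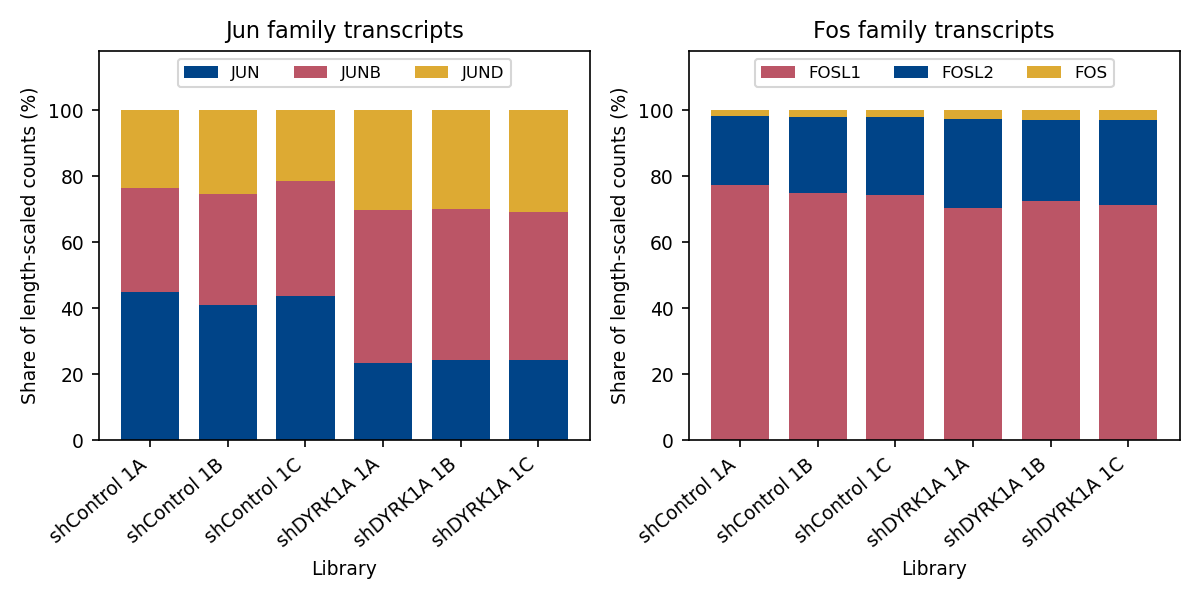
Share of each subunit in the length-scaled counts of the Jun family (left) and the Fos family (right), in percent, for each of the 6 libraries. JUN takes 40.9 to 45.0% of Jun transcripts in shControl and 23.5 to 24.4% in shDYRK1A. Per unit of length FOSL1 stays the main Fos transcript throughout, while FOSL2 has more raw counts in every library.

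EGR1, IER2, IER3 and MAFF lay closer to the shared shift than JUN, FOSL1, JUNB and JUND. EGR1 (ENSG00000120738, chromosome 5, 138465490 to 138469315, plus strand, 2 exonic blocks) encodes a zinc finger factor under the control of serum response elements. Its normalized counts were 2308, 2411 and 2076 in shControl against 1997, 1558 and 1866 in shDYRK1A, which do not overlap. The spike-in log2 FC was -0.33 ± 0.14 (adjusted p = 0.038), a call lost without shControl 1A or 1B or without shDYRK1A 1B or 1C (adjusted p from 0.11 to 0.19), and the TMM value was 0.07 ± 0.05 (adjusted p = 0.26). EGR1 kept pace with FOS, at 12.6 to 12.8 EGR1 counts per FOS count in shControl and 11.4 to 13.7 in shDYRK1A.

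IER2 (ENSG00000160888, chromosome 19, 13150415 to 13154908, plus strand, 2 exonic blocks) encodes a small nuclear protein induced by serum. It had 1527, 1665 and 1311 normalized counts in shControl against 1414, 1249 and 1218 in shDYRK1A, with overlapping ranges, and a log2 FC of -0.21 ± 0.15 (adjusted p = 0.19) that became -0.30 (adjusted p = 0.045) without shControl 1C. Its TMM value was 0.19 ± 0.06 (adjusted p = 0.020), the sign opposite to that on the spike-in scale. AC011446.2, on the opposite strand, covers 30.8% of its exonic sequence.

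IER3 (ENSG00000137331, chromosome 6, 30743199 to 30744554, minus strand, 1 exonic block) encodes a regulator of survival that responds to NF-kappa B and ERK signals. Its normalized counts were 416, 448 and 363 in shControl against 269, 280 and 241 in shDYRK1A, all below the controls. In the wider fit the log2 FC was -0.63 ± 0.18 (adjusted p = 0.0013) on the spike-in scale, and -0.26 ± 0.11 (adjusted p = 0.062) with TMM, where CPM of the groups overlapped. The TMM value was called with the library letter as a replicate block (-0.26, adjusted p = 0.043) and without shDYRK1A 1B (-0.37, adjusted p = 0.0040). The IER3 to IER2 ratio, 0.273, 0.269 and 0.277 in shControl and 0.191, 0.224 and 0.198 in shDYRK1A, differed by -0.42 on the log2 scale without overlap (exact p = 0.1). IER3-AS1 covers 26.5% of the IER3 exon on the opposite strand.

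MAFF (ENSG00000185022, chromosome 22, 38200767 to 38216511, plus strand, 4 exonic blocks) encodes a small Maf protein, which lacks an activation domain and pairs with NFE2 and BACH factors. It had 388, 413 and 291 normalized counts in shControl against 393, 309 and 310 in shDYRK1A, with overlapping ranges. In the wider fit its log2 FC was -0.11 ± 0.17 (adjusted p = 0.63) with spike-in scaling and 0.27 ± 0.10 (adjusted p = 0.036) with TMM.

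Per kilobase of merged annotated exons, the order of the 10 transcripts changed around the Jun genes. The order within a group depends on these annotated lengths. In shControl FOSL1 led with 44.5 ± 2.5 CPM per kilobase (SD, n = 3), followed by JUN (17.1 ± 1.7), EGR1 (15.9 ± 0.6), JUNB (13.3 ± 2.4), FOSL2 (13.2 ± 0.4), IER2 (10.8 ± 0.5), JUND (9.35 ± 1.99), IER3 (6.66 ± 0.26), MAFF (1.42 ± 0.12) and FOS (1.21 ± 0.05). The library ranges of JUN and EGR1, of EGR1 and JUNB, of JUNB and FOSL2, and of IER2 and JUND overlapped, so these neighbours did not differ beyond their spread. In shDYRK1A FOSL1 still led with 33.1 ± 0.7 CPM per kilobase (SD, n = 3), and JUNB came next at 20.0 ± 0.4. EGR1 (17.0 ± 1.0), JUND (13.3 ± 0.5), IER2 (12.5 ± 0.6), FOSL2 (11.9 ± 0.7), JUN (10.6 ± 0.3), IER3 (5.79 ± 0.71), MAFF (1.78 ± 0.13) and FOS (1.33 ± 0.09) followed. There, JUND overlapped with IER2 and IER2 with FOSL2. JUN thus went from rank 2 to rank 7, and JUNB from rank 4 to rank 2. All 10 genes together took 370, 403 and 382 CPM in shControl and 365, 351 and 365 CPM in shDYRK1A.

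Other members and dimer partners of AP-1 were measured as well, 17 in all, of which 10 passed the filter. With spike-in scaling 7 were called lower (63.4% of all genes) and 0 higher (1.08%), also at an unadjusted p below 0.05 and by DESeq2. Their median log2 FC was -0.52 against -0.40 for all genes. With TMM 5 were lower (28.6%) and 3 higher (27.3%). JDP2, a repressor that pairs with Jun proteins, went from 782, 790 and 670 normalized counts in shControl to 357, 319 and 362 in shDYRK1A, a log2 FC of -1.11 ± 0.17 (adjusted p = 6.5e-10) and of -0.70 ± 0.07 with TMM. DDIT3 (CHOP), a stress factor that can pair with AP-1 proteins, fell by 0.79 ± 0.15 on the log2 scale (adjusted p = 1.5e-06), and BACH1, a partner of small Maf proteins, by 0.75 ± 0.15 (adjusted p = 4.3e-06). MAFK, the sister of MAFF, stood at 0.11 ± 0.15 (adjusted p = 0.50), which became -0.03 with the GC trend removed, and at 0.52 ± 0.06 with TMM (adjusted p = 1.6e-05). ATF3 and NFE2L1 stood at -0.17 and -0.06 with spike-in scaling (adjusted p = 0.35 and 0.69) and at 0.22 and 0.34 with TMM.

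Of 32 other immediate early genes listed, 16 passed the filter. With spike-in scaling edgeR called 10 lower (63.4% of all genes), 2 higher (1.08%) and 4 neither, with a median of -0.39 against -0.40 for all genes, and with TMM 6 were lower (28.6%) and 6 higher (27.3%). RHOB, a small GTPase gene, fell most, from 1253, 1312 and 1070 normalized counts to 523, 397 and 474, a log2 FC of -1.38 ± 0.16 (adjusted p = 3.0e-16). CTGF and CYR61, matricellular genes that respond to serum and to YAP, fell by 0.96 ± 0.16 (adjusted p = 5.1e-08) and 0.90 ± 0.14 (adjusted p = 6.4e-09). Against the general fall, PTGS2, which encodes cyclooxygenase-2, rose from 276, 247 and 231 to 637, 417 and 624 normalized counts, a log2 FC of 1.16 ± 0.17 (adjusted p = 4.9e-10). SGK1, a kinase induced by serum and glucocorticoids, rose by 0.76 ± 0.16 (adjusted p = 8.1e-06), with 705, 601 and 542 counts in shControl and 1111, 939 and 1084 in shDYRK1A. ZFP36, which encodes an RNA-binding protein that speeds the decay of AU-rich transcripts, was at 0.31 ± 0.16 on the spike-in scale (adjusted p = 0.078 by edgeR and 0.046 by DESeq2) and at 0.72 ± 0.08 with TMM (adjusted p = 2.6e-05).

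Kinases and factors that act on these genes were mostly expressed, 33 of 36 passing the filter. With spike-in scaling 16 were called lower (63.4% of all genes) and 0 higher (1.08%), also at an unadjusted p below 0.05 and by DESeq2, with a median of -0.30 against -0.40 for all genes. With TMM 6 were lower (28.6%) and 13 higher (27.3%) around a median of 0.10. The lowest values belonged to RPS6KA4, the kinase MSK2 of chromatin and CREB, at -1.09 ± 0.15 (adjusted p = 3.2e-11), MAP2K6, an activator of p38, at -0.92 ± 0.16 (adjusted p = 2.2e-07), and MAPK9, which encodes JNK2, at -0.91 ± 0.14 (adjusted p = 3.2e-09). MAPK9 counts went from 4418, 4243 and 3565 in shControl to 2441, 1990 and 2078 in shDYRK1A, and its TMM value was -0.51 ± 0.05. At the other end, MAP2K3, also an activator of p38, was at 0.13 ± 0.14 (adjusted p = 0.43) and BRAF and GSK3A at -0.02 and -0.03 (adjusted p = 0.90 and 0.88). With TMM these 3 were higher by 0.53, 0.38 and 0.37.

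Of 26 genes long known to carry AP-1 sites, 17 passed the filter. With spike-in scaling 9 were called lower (63.4% of all genes), 3 higher (1.08%) and 5 neither. The median was -0.32 against -0.40 for all genes, and with TMM 5 were lower (28.6%) and 8 higher (27.3%). The list was chosen with earlier results of these data known, so these counts describe it and test nothing. The 3 that rose against the shift were the collagenases MMP1 and MMP13 and the stromelysin MMP3. MMP13 had 2350, 2262 and 1825 normalized counts in shControl against 3172, 2874 and 3173 in shDYRK1A, a log2 FC of 0.52 ± 0.14 (adjusted p = 8.4e-04) and of 0.93 ± 0.06 with TMM. MMP3 and MMP1 rose by 1.66 ± 0.14 (adjusted p = 6.5e-29) and 2.08 ± 0.14 (adjusted p = 9.6e-48). Conversely, F3 (tissue factor) fell by 1.10 ± 0.15 on the log2 scale (adjusted p = 3.3e-11), from 2014, 1700 and 1426 counts to 962, 692 and 745. CCND1, the cyclin D1 gene, fell by 0.91 ± 0.14 (adjusted p = 1.9e-09), and VIM by 0.72 ± 0.13 (adjusted p = 1.5e-07). MMP1, MMP3 and MMP13 were higher while JUN and FOSL1, whose products are classical activators of MMP1, were lower, and whether the changes are connected was not tested.

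**Figure D5:**
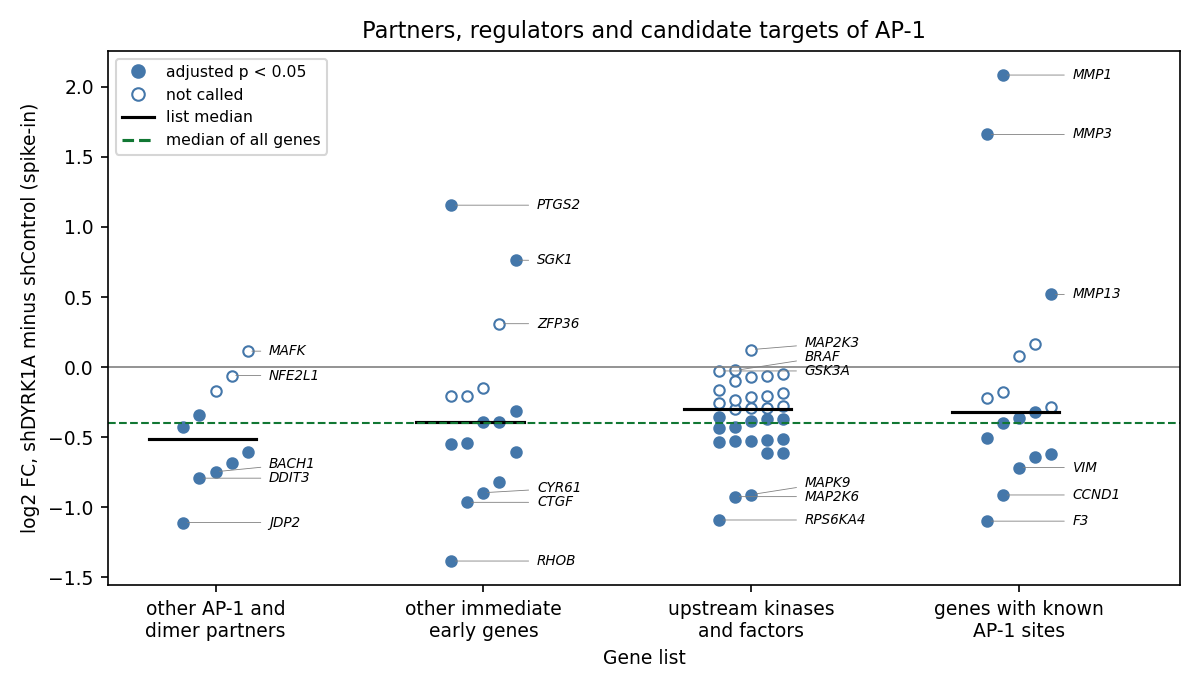
Spike-in log2 FC (shDYRK1A minus shControl) of the genes past the filter in the 4 companion lists, filled where the adjusted p is below 0.05. The list medians (bars, -0.52 to -0.30) lie near the median of all genes (dashed, -0.40). Of the filled genes, MMP1, MMP3, PTGS2, SGK1 and MMP13 stand above 0.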

How the data were processed

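Poly(A) RNA of 6 T98G libraries had been sequenced in pairs with a stranded kit. The authors deposited raw gene counts per library, made with STAR against hg38 and dm3 per the submitters' processing notes (versions not given in the sources used here), for 58174 human gene identifiers. They also deposited a normalized signal for 23026 genes, in which each library's counts were divided by 1 size factor, which the methods derive from Drosophila reads. These factors were recovered from that table and used here, since the count tables hold human genes. The authors' DESeq2 comparison (log2 fold changes and p-values) was not used, and 0 per-sample columns were unmatched. Gene coordinates equalled GENCODE 29 for 95.8% of genes, so the build was taken as GRCh38.

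Groups and library letters came from the sample titles. Genes above 10 mean normalized CPM (9697) entered edgeR 4.0.16's robust quasi-likelihood test (glmQLFit, glmQLFTest), with Benjamini-Hochberg adjustment over all of them. Calls required an adjusted p under 0.05, and a log2 FC of -0.7 served as a stricter threshold. The standard error is the log2 FC over the square root of F. TMM-scaled fits, fits over the 17530 genes of filterByExpr, median-of-ratios scaling, DESeq2 1.42.0, no filter beyond 1 count, a replicate block and leaving out each library were alternatives. GC and length trends (natural splines, 4 degrees of freedom) were added after seeing the data. Within-library ratios were compared by two-sided exact permutation tests over 9 ratios (scipy 1.17.1). Counts of the members bear binomial (Wilson) 95% intervals, and these leave out all but counting error, as PCR copies were not marked. The steps were tested on simulated data.

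The 10 genes and the companion lists were chosen with earlier results of these data known. From each of 4 companion lists, up to 3 genes with the lowest and 3 with the highest log2 FC among those called on either scale are named. Likeness between genes across libraries is not given, since the libraries fall into 2 clusters. A further gene of the lists is not reported here.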

Additional observations from a re-analysis of the deposited data

How the results depend on the processing

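Leaving out a library gives an arm of 2, whose spread was pooled with the other arm, and no fold change of FOSL1, FOSL2, JUN or IER3 lost its spike-in call in any such fit. With TMM scaling the log2 FC was 0.56 for JUNB, 0.49 for JUND, 0.19 for IER2, 0.27 for MAFF, 0.074 for EGR1, 0.079 for FOS and -0.26 for IER3. It was 0.22 for ATF3, 0.34 for NFE2L1, 0.37 for GSK3A and 0.38 for BRAF. This scaling called 3 of the 7 genes past the filter higher, with 2769 genes lower and 2652 higher overall. Median-of-ratios scaling over human genes gave 0.57 for JUNB, 0.49 for JUND, 0.20 for IER2, 0.27 for MAFF, 0.077 for EGR1, 0.082 for FOS, -0.25 for IER3, 0.22 for ATF3, 0.34 for NFE2L1, 0.38 for GSK3A and 0.38 for BRAF, with 2719 genes lower and 2709 higher and 3 of those 7 higher. The main gap between the scales is built into them, since TMM and median-of-ratios centre the human genes. TMM scaling without shDYRK1A 1B gave 0.56 for JUNB, 0.15 for IER2, 0.26 for MAFF, 0.11 for EGR1, 0.052 for FOS, 0.25 for ATF3, 0.35 for NFE2L1, 0.34 for GSK3A and 0.41 for BRAF, with 2929 genes lower, 2806 higher and 2 of the 7 higher. Of the 17530 genes in the wider set, 3323 were called higher with TMM and 3364 with median-of-ratios. The numbers were 3504 with TMM and the letter, and 3314 with TMM without shDYRK1A 1B. Of the 10 genes, 4 were higher with TMM, median-of-ratios or TMM with the letter, and 2 with TMM without shDYRK1A 1B.

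With the replicate letter as a block, none of the 39 spike-in results recomputed with it changed its call. In the wider fit, however, 4 of the 10 genes were called lower in place of 5, EGR1 being the one lost. Of all 17530 genes, 7672 were called lower there, against 7745 without the block. TMM with the replicate block gave 0.58 for JUNB, 0.50 for JUND, 0.19 for IER2, 0.27 for MAFF, 0.073 for EGR1, 0.079 for FOS, 0.22 for ATF3, 0.34 for NFE2L1, 0.37 for GSK3A and 0.38 for BRAF, with 2847 genes lower, 2764 higher and 3 of the 7 higher. Libraries with the same letter correlated at 0.15, 0.07 and 0.13 in their deviations from the group means over 9697 genes. Libraries with different letters correlated at -0.094 to -0.014, so each library correlated best with its own letter. The labels do not say what a letter marks, and the main fits left it out. Whether the letters mark pairs was not tested.

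With each library left out in turn, the log2 FC ranged from 0.067 to 0.34 for JUNB, -0.069 to 0.32 for JUND, -0.25 to -0.0071 for MAFF, -0.40 to -0.23 for EGR1, -0.30 to -0.13 for IER2, -0.13 to 0.012 for NFE2L1, -0.10 to 0.012 for GSK3A and -0.10 to 0.078 for BRAF. The log2 EGR1 to FOS ratio difference ranged from -0.11 to 0.029. The number of genes lower ranged from 4049 to 7552, and of genes higher from 69 to 114. For EGR1, testing every gene with more than 1 count left -0.33 uncalled (adjusted p = 0.072). That filter gave 331 higher genes and filterByExpr 346, with more genes tested. Trends on GC content and exon length were removed after the data had been seen. The GC trend gave -0.080 for JUND, -0.35 for IER2, -0.031 for MAFK and 0.073 for BRAF, and the length trend gave -0.013 for JUND and 0.050 for BRAF. The cause of these moves was not tested.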

Other observations

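Some genes of the companion lists lay under the expression filter but changed in the wider fit. BTG2, NFKBIZ and MMP10, named here after their values were seen, all rose, and the genes that fell are not listed in full. With spike-in scaling the wider fit held 106 genes of the 4 companion lists and called 51 lower (44.2% of all its genes) and 8 higher (1.97%), where the narrower fit had called 42 and 5 of 76. BTG2, an antiproliferative immediate early gene, had 69, 78 and 88 raw counts in shControl and 226, 154 and 220 in shDYRK1A, a log2 FC of 1.06 ± 0.22 (SE, edgeR adjusted p = 1.3e-05) with spike-in scaling. NFKBIZ, which encodes the atypical inhibitor protein I kappa B zeta, had 215, 227 and 242 raw counts in shControl and 629, 394 and 613 in shDYRK1A, a log2 FC of 0.96 ± 0.17 (edgeR adjusted p = 6.4e-07). MMP10, stromelysin-2, rose most among them, from 29, 32 and 23 to 173, 158 and 170 raw counts, a log2 FC of 2.27 ± 0.26 (edgeR adjusted p = 3.2e-16).

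Of the 12 glioma and mesenchymal markers, 8 were in the wider fit with spike-in scaling. There 6 were called lower (44.2% of all its genes), 1 higher (1.97%) and 1 neither. Their median log2 FC was -0.71, against -0.37 for all genes of that fit. The 1 that rose was CHI3L1. CHI3L1, a secreted marker of mesenchymal glioma, had 140, 200 and 197 raw counts in shControl and 537, 443 and 545 in shDYRK1A, a log2 FC of 1.21 ± 0.18 (edgeR adjusted p = 5.9e-10). SPP1, which encodes osteopontin, fell by 1.02 on the log2 scale (edgeR adjusted p = 1.4e-07). FOSB, the remaining Fos gene, had 41, 47 and 47 raw counts in shControl and 55, 50 and 71 in shDYRK1A, and its log2 FC of 0.08 ± 0.28 was not called (edgeR adjusted p = 0.84).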
